A study of Homo sapiens with 20 samples.

Results

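The 100 genes described here were those whose RNA was higher on days 4 and 5 than on both day 0 and day 8 of the erythroid differentiation of HUDEP-2 cells, an immortalized line of human erythroid progenitors derived from umbilical cord blood. They were chosen by TPM, a transcript level that allows for transcript length and sums to the same total in every library. TPM were summed for each gene symbol, and the mean of days 4 and 5 was set against day 0 and against day 8 in each of 2 sets of libraries. A gene's score was the smaller of these log2 ratios, with 1 TPM added to each level, in the set where it was lower. Genes with an NM_ transcript and a mean of at least 5 TPM on days 4 and 5 in both sets were ranked, which left 8312 of 46425 gene symbols, and the 100 with the highest score were taken. The levels on days 0, 4, 5 and 8 therefore chose the members and are given as a description, with no test.

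Wild-type HUDEP-2 cells were sequenced on days 0 to 8 and on day 12, with 2 libraries on each of the 10 days, of 52131713 to 70358198 counts each. Before differentiation the cells were kept in serum-free medium with erythropoietin (EPO), stem cell factor (SCF), dexamethasone and doxycycline, and day 0 shows them there. From then on they grew in IMDM with holo-transferrin, AB serum, heparin, insulin, EPO, SCF and doxycycline, for which no dexamethasone is listed. Day 0 therefore differs from every later day in the medium as well as in time. SCF was taken out on day 6 and doxycycline on day 8, so the medium differs again after those days. One library of each day stands in tables of separate days (here the first set) and the other in a table of all days (the second set). In the first set, days 7 and 8 stand in another table than days 0 to 6, and day 12 in yet another. Values given in pairs are those of the first and then of the second set. The libraries of days 0 and 8 are described as biological replicates in the source publication. For the other days, on which the tests below rest, separate cultures are not stated in the sources used here, so the spread between their libraries may be technical.

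Terminal erythroid differentiation takes a proerythroblast through basophilic, polychromatic and orthochromatic erythroblasts to a reticulocyte. The cells stop dividing, fill with hemoglobin, condense and expel the nucleus and clear their mitochondria, while most transcripts fade and globin mRNA comes to dominate the RNA that is left. RNA that is present mainly in the middle of this course belongs to cells that still have a nucleus and mitochondria while hemoglobin builds up. Metallothioneins, the family that holds the gene with the highest score, are small cysteine-rich proteins that bind zinc and copper, and their promoters carry metal response elements, short motifs bound by the zinc-sensing factor MTF1.

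The promoter of MT1X and, for comparison, those of MT2A and MT1H, which are in the same gene cluster on chromosome 16 and are not members, are shown because these genes took the same step from day 0 to day 1. The sequences are the 250 bases before the start of each gene in RefSeq (build GRCh38.p14), on the plus strand at chr16:56682220-56682469, chr16:56608334-56608583 and chr16:56669564-56669813, with matches to the core of the metal response element, TGCACNC or TGCGCNC on either strand, in capitals. MT1G had no entry in this table.
MT1X: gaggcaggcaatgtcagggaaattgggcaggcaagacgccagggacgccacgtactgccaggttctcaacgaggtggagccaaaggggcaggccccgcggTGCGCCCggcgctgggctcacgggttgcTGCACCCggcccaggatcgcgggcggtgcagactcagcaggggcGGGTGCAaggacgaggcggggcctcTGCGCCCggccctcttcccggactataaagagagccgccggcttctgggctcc
MT2A: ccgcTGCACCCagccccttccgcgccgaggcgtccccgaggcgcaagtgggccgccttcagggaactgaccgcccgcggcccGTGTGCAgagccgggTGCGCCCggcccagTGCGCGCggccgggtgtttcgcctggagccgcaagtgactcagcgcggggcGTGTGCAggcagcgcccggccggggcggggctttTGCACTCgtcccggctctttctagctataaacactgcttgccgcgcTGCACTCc
MT1H: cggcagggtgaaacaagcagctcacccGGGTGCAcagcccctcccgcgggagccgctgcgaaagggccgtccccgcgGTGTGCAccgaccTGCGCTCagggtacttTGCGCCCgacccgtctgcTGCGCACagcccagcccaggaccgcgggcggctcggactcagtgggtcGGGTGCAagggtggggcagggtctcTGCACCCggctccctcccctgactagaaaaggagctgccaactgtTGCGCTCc
The core occurred 4 times in the promoter of MT1X, 7 times in that of MT2A and 8 times in that of MT1H, and 0.448% of 15843 protein-coding promoters of this length held it at least 4 times. At least 1 match stood in 25 of the 81 members with a promoter in RefSeq's table, or 30.9%, beside 29.3% of all these promoters, so single matches were about as common among the members as elsewhere.

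The members did not form a sharp peak on days 4 and 5. The highest TPM fell on day 4 or 5 in both sets for 30 of the 100 members, in at least 1 set for 67, and between days 3 and 6 in both sets for 61. On CPM, counts scaled to the library total, with edgeR's TMM factors, which centre most genes, these counts were 12, 46 and 31, while 10 members were highest on day 7 and 15 on day 12 in both sets. Taking the mean TPM of days 4 and 5 as 100%, the median member stood at 62.5% and 65.1% on day 0, 83.7% and 83.8% on day 1, 90.8% and 89.5% on day 2, and 99.4% and 100.7% on day 3. It stood at 90.2% and 92.5% on day 6, 63.6% and 74.1% on day 7, 52.8% and 68.2% on day 8 and 17.4% and 9.56% on day 12. On this scale the median member was thus near its highest from day 3 to day 6 and lower from day 7. On TMM-scaled CPM it stood at 99.2% and 90.8% on day 6, 86.6% and 94.0% on day 7 and 55.4% and 40.4% on day 12, so the second set was not lower on day 7 than on day 6. The highest score was 1.18 (MT1G, a 2.26-fold difference from day 8 in the first set), the median 0.41 (1.33-fold) and the lowest 0.32 (1.24-fold), and 13 members reached 1.5-fold. At the edge of the list DYRK4, RUSF1 and DYNLL1 scored 0.3160, 0.3158 and 0.3155, and the first genes outside it, COQ5, BOLA3 and ACOT8, scored 0.3131, 0.3090 and 0.3087, so the limit marks no gap between the genes.

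**Figure D1:**
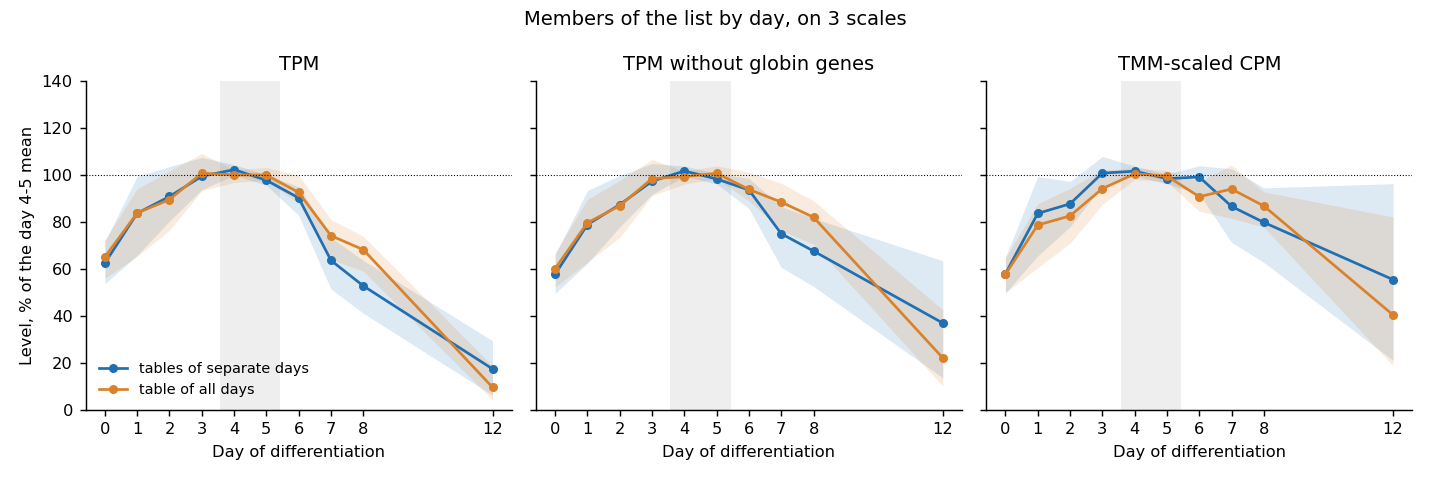
Level of the members on each day as a percentage of their mean on days 4 and 5 (grey band), on 3 scales. Points are medians over the members (99 of them without globin genes) and bands run from the lower to the upper quartile, with 1 line for each set of libraries. On all scales the medians on day 0 are below those on days 4 and 5, and day 8 stands at 52.8% and 68.2% on TPM and at 79.8% and 86.8% on TMM-scaled CPM.

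How far the members stood below the plateau after day 6 depended on the scale. TPM are shares of one total, and the globin genes' part of it went from 2.91% and 2.90% on day 0 to 10.9% and 10.9% on day 5, 30.1% and 25.3% on day 8 and 59.4% and 63.0% on day 12. Ribosomal RNA took 5.49% and 4.67% of TPM in the first-set libraries of days 7 and 8 (17.6% and 16.8% of their counts) and between 0.267% and 0.759% in the other 18. Over the 8833 genes, with or without an NM_ transcript, that had a mean of at least 5 TPM on days 4 and 5, the median log2 ratio to day 8 was 0.64 and 0.34 in the sets, beside 0.88 and 0.54 for the members, so on this scale the median gene was also lower on day 8. On TMM-scaled CPM the same ratios were 0.08 and 0.03 for all genes and 0.31 and 0.20 for the members. The ratio to day 0 was of like size on both scales, 0.65 and 0.59 on TPM and 0.75 and 0.77 on TMM-scaled CPM for the median member, beside −0.09 and −0.12 and then 0.01 and 0.04 for all genes. For TPM rescaled without globin genes, 94 of 99 members kept a day 4 and 5 mean above days 0 and 8 in both sets. So did 11.9% of all genes with a mean of at least 5 there. On TMM-scaled CPM 80 of 100 members did, beside 9.26% of all genes with a mean of at least 5. The same libraries chose the members, so these counts are a description. A new ranking put 49 of the 100 members in its own top 100 without globin genes and 35 on TMM-scaled CPM. Less RNA of a gene per cell and fewer cells that hold it cannot be told apart in these bulk samples.

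**Figure D2:**
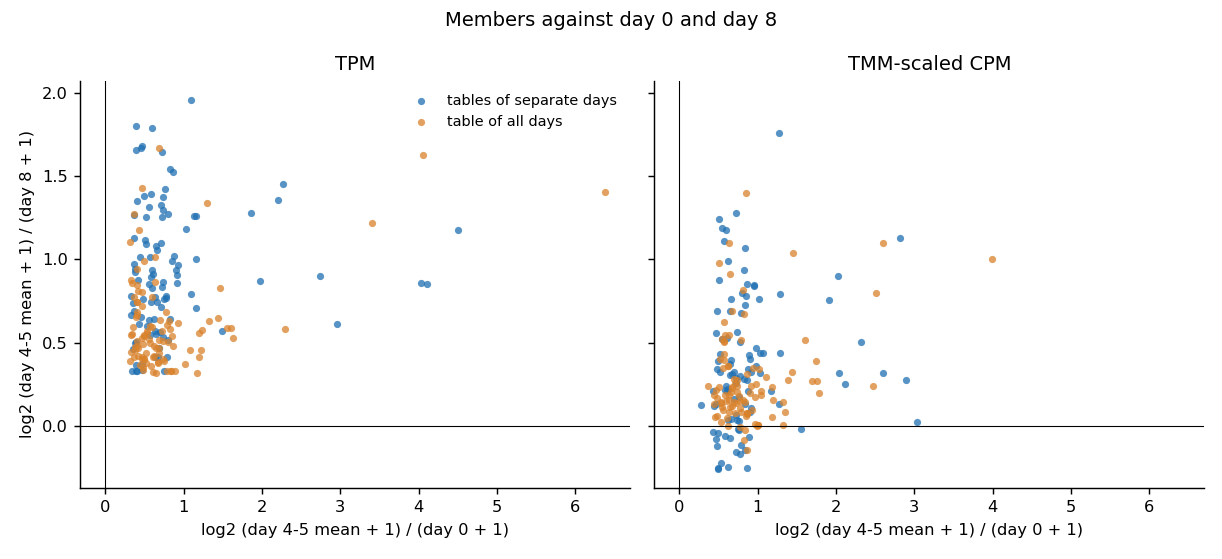
Log2 ratio of the day 4 and 5 mean to day 0 (horizontal axis) and to day 8 (vertical axis) for the 100 members, in TPM (left) and TMM-scaled CPM (right), 1 point for each member and set of libraries. Every point lies in the upper right on TPM, as the rule requires. On TMM-scaled CPM all points stay to the right of 0 and 80 members stay above 0 in both sets. Both held in both sets for 9.26% of all genes with a mean of at least 5 on that scale.

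The sets differed in level. Members were higher in the second set for 75 of 100 genes on day 0 and for 88 on day 8, with a median log2 ratio of the sets of 0.18 and 0.49, and higher in the first set for most on day 12, where the median was −0.28. The gap was widest for MT1G on days 1, 2, 4, 5, 6 and 8 and for HBZ on days 3 and 12. A ranking by the second set alone shared 51 members with the list, and one by the first set alone shared 37.

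Among the 3 members in metal binding and transport, MT1G (chromosome 16, 56666730 to 56668065 in GRCh38.p14) had TPM of 0 and 0 on day 0, 40.7 and 150.0 on day 1, 2.73 and 23.4 on day 2 and 26.7 and 93.1 on day 3. On days 4, 5 and 6 the pairs were 19.9 and 70.1, 23.4 and 94.8, and 19.7 and 72.8. On days 7, 8 and 12 they were 9.83 and 29.9, 9.01 and 30.5, and 0.375 and 0.3899. It was listed at 0 in both libraries of day 0 and was highest on day 1 in both sets. The level was low on day 2 and higher again on day 3, and the second set was above the first on every later day. MT1X had 0.166 and 1.16 on day 0, 18.6 and 42.3 on day 1, 12.7 and 32.5 on day 2 and 21.5 and 40.1 on day 3. Day 4 gave 18.3 and 36.2, day 5 19.8 and 33.8 and day 6 18.3 and 32.5. Day 7 gave 13.5 and 14.5, day 8 10.1 and 10.7 and day 12 1.004 and 1.82. It took the same first step and had no such low on day 2. The step by day 1 was also seen in relatives outside the list. MT2A, the most abundant metallothionein on day 1, went from 0.937 and 4.18 TPM on day 0 to 152 and 262 on day 1 and 41.5 and 70.1 on day 2, and MT1H went from 0 in both libraries to 8.69 and 46.3 and then 0.247 and 3.3. Day 1 was also the highest day of MT1E, MT1F and MT1M in both sets, and unlike MT1G and MT1X, MT2A was still at 88.4 and 78.7 TPM on day 12. Reads of these near-identical genes may be split between them, so the single members are uncertain. The third member of the group, SLC41A1, which codes for a magnesium transporter, went from 22.99 and 31.4 TPM on day 0 to 40.5 and 51.3 on day 3 and stood at 9.54 and 22.04 on day 8.

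**Figure D3:**
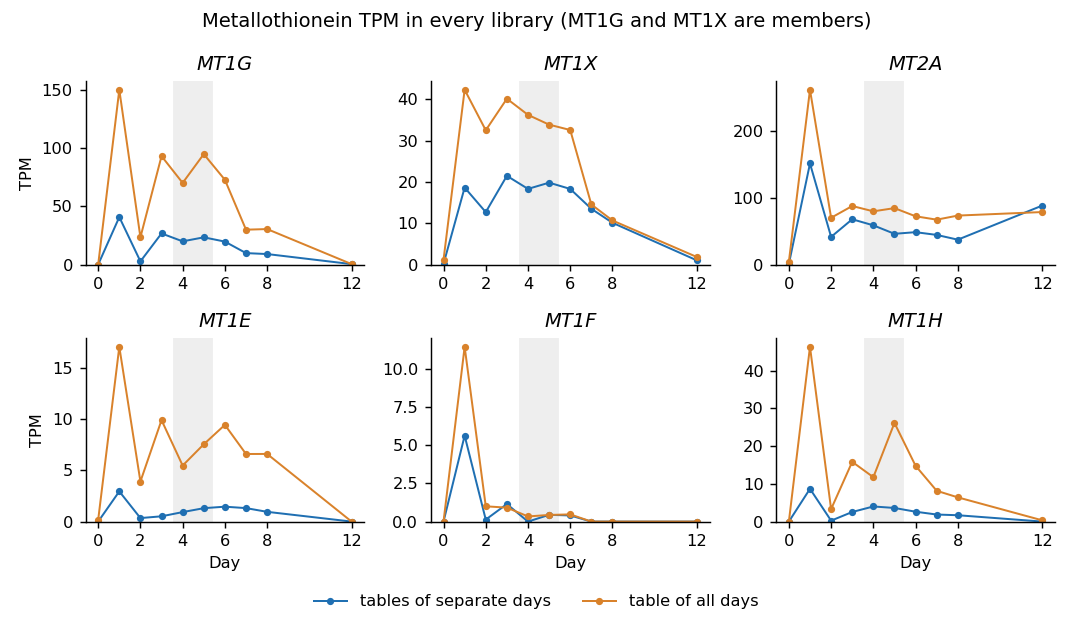
TPM of 6 metallothionein genes on each day, 1 line for each set of libraries, with days 4 and 5 shaded and the vertical axis from 0 in each panel. All 6 were highest on day 1 in the second set and 5 of them (all but MT1X) in the first, and MT2A alone stayed high on day 12.

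Among the peptides, receptors and channels, NMU codes for neuromedin U, a secreted neuropeptide that is also made by erythroid progenitors. Its TPM were 0.304 and 0.663 on day 0, 11.5 and 11.4 on day 1, 33.2 and 28.1 on day 2 and 23.6 and 27.9 on day 3. The next pairs were 24.3 and 18.2 on day 4, 16.2 and 14.9 on day 5 and 15.6 and 13.8 on day 6. The last pairs were 6.82 and 4.53 on day 7, 10.7 and 6.53 on day 8 and 0.109 and 0 on day 12. The gene was highest on day 2 in both sets. Among the days outside the rule, its libraries of days 1, 2, 3 and 6 were all above those of days 7 and 12. SIGIRR, an inhibitory receptor of the interleukin-1 family, went from 7.34 and 6.74 on day 0 to 20.9 and 14 on day 1 and 5.17 and 5.12 on day 8. KCNK5, a potassium channel of the tandem-pore family, had a like course with 12.1 and 14.95, 29.7 and 27.7 and 4.47 and 7.05 TPM on the same days. The interleukin-17 receptor subunit IL17RC was low throughout, between 0.452 and 8.704 TPM.

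The 12 members grouped as mitochondrial included assembly factors of respiratory complexes and enzymes of amino acid and coenzyme metabolism. UQCC3, an assembly factor of respiratory complex III, had TPM of 5.44 and 10.3 on day 0, 22.4 and 25.2 on day 1, 22.2 and 23.9 on day 2 and 24.6 and 25.6 on day 3. On days 4, 5 and 6 the pairs were 25.1 and 31.5, 23.5 and 28.98, and 21.6 and 23.5. On days 7, 8 and 12 they were 15.5 and 19.4, 12.8 and 16.6, and 3.22 and 2.69. Day 1 was already close to the plateau. GCAT, which cleaves the threonine product 2-amino-3-ketobutyrate to glycine in mitochondria, had 6.72 and 12.4 on day 0, 29.8 and 41.2 on day 1, 49.7 and 57.1 on day 2 and 60.8 and 66.8 on day 3. Day 4 gave 61.8 and 63.7, day 5 55.9 and 65.4 and day 6 53.8 and 54.1. Day 7 gave 43.2 and 45.1, day 8 38.1 and 42.8 and day 12 17.9 and 10.9. Unlike UQCC3, it was still well below day 3 on day 1 in both sets. BCS1L, another complex III factor, went from 25 and 43.6 on day 0 to 39.7 and 60.9 on day 3 and 19.9 and 29.5 on day 8, and NDUFAF3, a complex I factor, from 70.6 and 70.96 to 88.5 and 129.7 on day 5 and 74.3 and 84.3 on day 8.

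Enzymes of both steps of mitochondrial proline synthesis were members. ALDH18A1, which makes the glutamate semialdehyde from which proline is formed, went from 80.1 and 103 TPM on day 0 to 124 and 145 on day 4 and was at 58.6 and 113 on day 8. PYCR1, which reduces pyrroline-5-carboxylate to proline, had 134 and 146, 193 and 272 and 136 and 214 TPM on these days. Of 11 coenzyme Q genes only COQ3 was a member, and COQ5 was the first gene outside the limit.

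Among the sugar and redox enzymes, PGD, which makes NADPH in the pentose phosphate pathway, had TPM of 236 and 229 on day 0, 223 and 252 on day 1, 347 and 345 on day 2 and 367 and 447 on day 3. The next pairs were 367 and 439 on day 4, 343 and 435 on day 5 and 337 and 415 on day 6. The last pairs were 240.0 and 289.5 on day 7, 212 and 285 on day 8 and 100.3 and 90.9 on day 12. It was the only member among 7 enzymes of that pathway. CA8, a carbonic-anhydrase-related protein without that activity, went from 61.9 and 111 TPM on day 0 to 173 and 174 on day 1 and 118 and 126 on day 8, and PRXL2B, a prostaglandin F synthase, from 20.1 and 18.6 to 30.2 and 41.5 on day 5 and 11.4 and 29.7 on day 8. On TMM-scaled CPM the log2 ratio of the day 4 and 5 mean to day 8 was −0.02 and −0.14 for CA8, so CA8 was not lower on day 8 there.

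The 6 members of the glycosylation group act on glycolipids, glycoproteins and GPI anchors of the cell surface. A4GALT makes the globotriaosylceramide of the P1PK blood group (the Pk antigen), and its TPM were 30.8 and 29.9 on day 0, 34.3 and 37.7 on day 1, 58.99 and 57.1 on day 2 and 73.8 and 82.7 on day 3. On days 4, 5 and 6 the pairs were 69.5 and 88.1, 70.7 and 91.01, and 59.2 and 76.9. On days 7, 8 and 12 they were 41.8 and 64.8, 28.7 and 59.2, and 1.34 and 0.674. Days 2, 3 and 6 lay above days 1 and 12 in both sets, while day 8 of the second set was still at the level of day 2. ST6GAL1, which adds sialic acid to N-glycans, stayed low, at 3.36 and 3.43 on day 0, 11.5 and 6.501 on day 2 and 1.39 and 2.77 on day 8. MGAT3, which adds the bisecting N-acetylglucosamine, had 54.7 and 53.5, 71 and 75.2 and 31.8 and 52.3 TPM on the same days.

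Tubulins, actin and motors made up a group of 11 members. TUBB2A and TUBB2B, neighbouring near-copies of beta-tubulin on chromosome 6, had parallel courses, and reads shared between them make each value uncertain. TUBB2A had TPM of 121 and 57.5 on day 0, 136 and 72.9 on day 1, 152 and 104 on day 2 and 215 and 161 on day 3. Day 4 gave 201 and 184, day 5 189 and 174 and day 6 179 and 175. Day 7 gave 129.8 and 156, day 8 141 and 124 and day 12 198 and 138, so it was not low on day 12. TUBB2B had 42.97 and 17.7 on day 0, 67.4 and 56.7 on day 4, 42.4 and 36.7 on day 8 and 58.6 and 41.9 on day 12. The first set started higher than the second for both genes. TUBB6 went from 202 and 278 on day 0 to 302 and 398 on day 4 and had only 19.5 and 11.5 on day 12, whereas the main beta-tubulin TUBB, no member, had 2738 and 2897 TPM on day 0 and 3106 and 3227 on day 4. ACTN4, an actin crosslinker, had 143 and 134 on day 0, 239 and 214 on day 4 and 109 and 152 on day 8. IFT46, a part of the intraflagellar transport complex, stepped from 1.94 and 5.45 to 9.83 and 18.1 by day 1. MAPRE3, which binds growing microtubule ends, was the clearest case of an early course, with 8.51 and 7.84 on day 0, 37.3 and 28.4 on day 1, 15.7 and 12.6 on day 4 and 5.22 and 3.701 on day 8.

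Of 13 members that act in transcription and chromatin, several were zinc finger proteins of low level. ZNF629 went from 0.909 and 2.996 TPM on day 0 to 7.93 and 9.54 on day 4 and had 2.35 and 5.89 on day 8, and ZSCAN9 was highest on day 1 with 21.2 and 23.4 after 7.65 and 11.03 on day 0. SREBF1, which codes for an activator of lipid synthesis genes, went from 59.9 and 94.5 on day 0 to 83.4 and 123 on day 4 and 40.3 and 56.2 on day 8. HMG20B, a subunit of the LSD1-CoREST complex, had 80.7 and 49.1, 126 and 73.5 and 64.9 and 54.1 TPM on these days, and its sets were far apart. On TPM, CXXC5 and TSC22D4 were early, with 59.3 and 47.4 and, for the latter, 108 and 84.6 TPM on day 1 against 43.01 and 43.7 and 85.7 and 74.2 on day 4. On TMM-scaled CPM, however, TSC22D4 was highest on day 12 in both sets. ZNF623 and ZNF395 ranged from 3.803 to 15.8 and from 5.47 to 37.2 TPM.

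Other members with a high score were single genes of several kinds. NEK3, a kinase of the NIMA family, went from 5.03 and 6.56 TPM to 20.5 and 17.8 by day 1, and ERCC1, the partner of the repair nuclease XPF, from 31.3 and 43.98 to 75.9 and 66.5. The phosphatase 4 subunit PPP4R1 reached 67.4 and 89.5 on day 3 after 37.7 and 51.2 on day 0 and had 25.2 and 53.4 on day 8. AMMECR1 had 137 and 131 on day 0, 232 and 186 on day 4 and 72.1 and 127 on day 8. AGFG2 had 8.302 and 8.66, 15.3 and 15.9 and 5.41 and 9.97, and SLC66A2 51.6 and 86.6, 85.8 and 155 and 51.7 and 108. CAPN2, a calcium-dependent protease, had 19.05 and 14.6, 35.6 and 21.1 and 11.7 and 14.9, and C1orf53 4.21 and 4.67, 9.301 and 7.62 and 4.21 and 4.5. HBZ, the embryonic alpha-like globin, was a member with TPM of 8.11 and 8.68 on day 0, 10.2 and 12.04 on day 1, 28.2 and 10.8 on day 2 and 77.5 and 21.3 on day 3. The next pairs were 72.5 and 25.3 on day 4, 47.5 and 17.05 on day 5 and 50.6 and 13.97 on day 6. The last pairs were 42.5 and 19.3 on day 7, 31.6 and 14.1 on day 8 and 72.7 and 4.97 on day 12. Its sets were far apart from day 2 on. HBZ shares sequence with the far more abundant alpha-globin genes, so its values are uncertain, as are those of SLX1A and SLX1B and of the readthrough genes RPL36A-HNRNPH2 and ANKHD1-EIF4EBP3. The 14 members outside the role groups scored between 0.32 and 0.57.

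**Figure D4:**
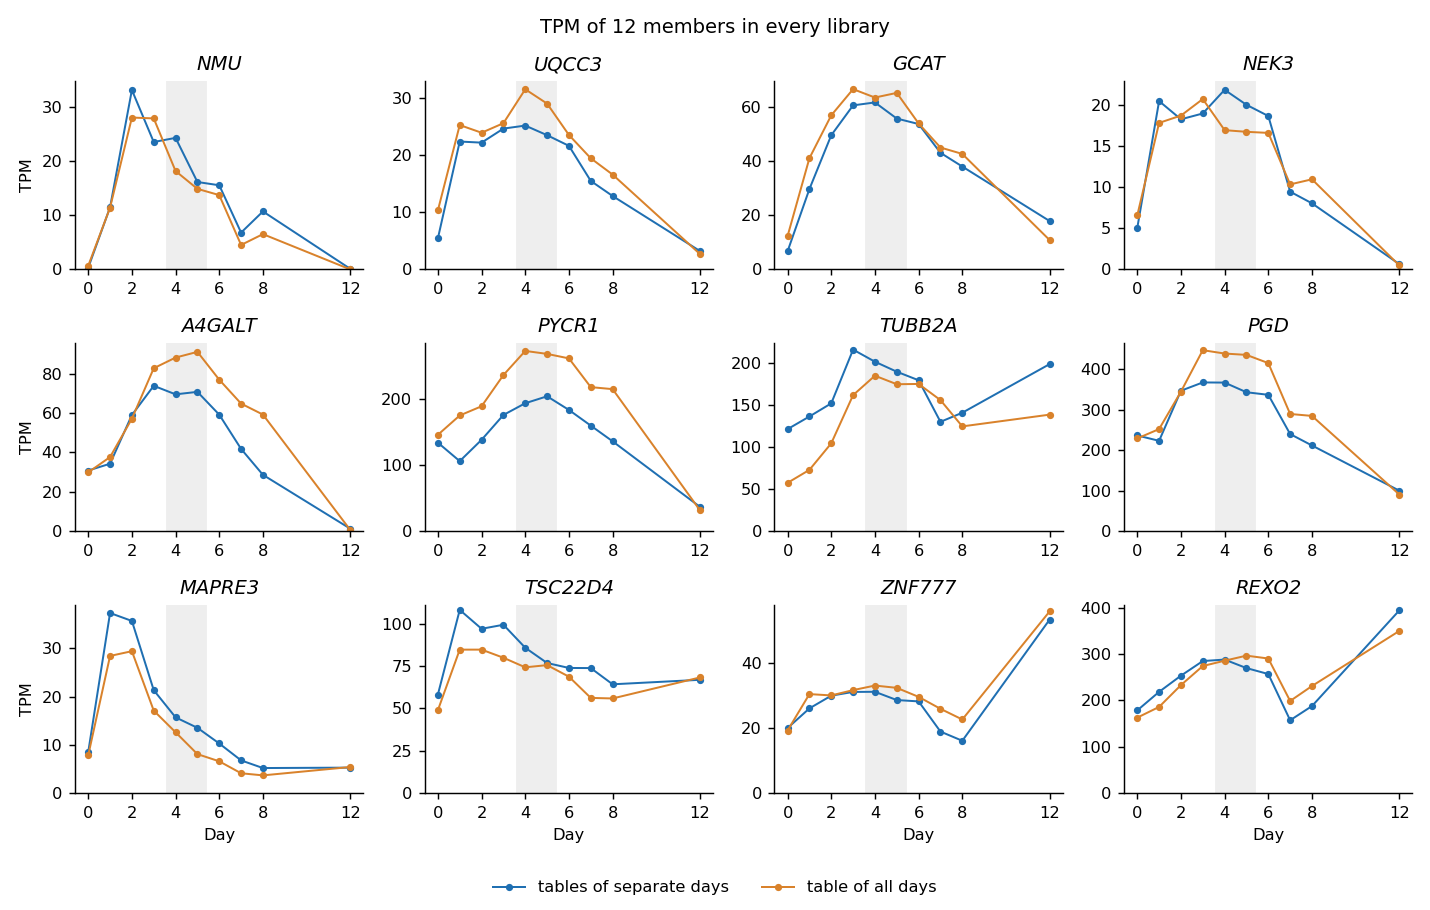
TPM of 12 members on each day, 1 line for each set of libraries, with days 4 and 5 shaded and the vertical axis from 0. On this scale early members (MAPRE3, TSC22D4) were highest on day 1 or 2, and others were near their plateau by day 1 (UQCC3, NEK3) or by day 3 (GCAT, A4GALT, PGD). ZNF777 and REXO2 were highest on day 12, as was TSC22D4 on TMM-scaled CPM.

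On day 1, which the rule did not use, members fell into unlike courses. At least 90% of the day 4 and 5 mean was already reached in both sets by 29 members, and 10 of these (MT1G, ZSCAN9, SIGIRR, MFSD12, UBE2D4, CXXC5, KCNK5, MAPRE3, DEF8 and TSC22D4) were at or above it. Less than 75% was reached in both sets by 26 members, among them NMU, A4GALT, PGD, GCAT, PYCR1, TUBB2A and TUBB2B. Over the 8833 genes with at least 5 TPM, 62.4% were at or above 90% on day 1 and 4.85% under 75%. In 6 members (NMNAT3, ACSBG1, ANKHD1-EIF4EBP3, ERBIN, REPS2 and FAHD2A) the level of day 1 was below that of day 0 in both sets, beside 46.2% of the 8833 genes. In 79 members it was above, beside 25.9%. Day 0 and the day 4 and 5 mean, against which day 1 is set here, chose the members. These differences from all genes can follow from the rule, so the counts are a description.

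Tests were made between days that the rule did not use, in one edgeR quasi-likelihood fit of the gene counts of the 12 libraries of days 1, 2, 3, 6, 7 and 12, with Benjamini-Hochberg adjustment over all 16139 genes and a threshold of 0.05. All 100 members passed the filter on low counts. From day 1 to day 3 the median log2 fold change of the members was 0.265, beside −0.01 for all genes, and 81 of 100 values were above 0, beside 47.4% of all genes. A4GALT was the single member called, with a log2 fold change of 1.16 ± 0.18 (SE, n = 2 libraries a day, adjusted p = 0.0412), among 0.112% of all genes called higher, and no member was called lower, beside 0.217%. The unadjusted p was under 0.05 for 28 members, beside 9.37% of all genes. Both libraries of day 3 were above both of day 1 for 47 members, beside 17.7% of all genes, and below for 2, beside 20.3%. Apart from A4GALT, the largest values belonged to HBZ (2.21 ± 1.12, adjusted p = 0.62), ACSBG1 (1.63 ± 0.48, adjusted p = 0.277) and NMU (1.2 ± 0.45, adjusted p = 0.423), which did not pass. MT1G (−0.64 ± 0.99) and MAPRE3 (−0.75 ± 0.36) had values below 0 and did not pass either. The call of A4GALT was kept in 9 of 22 alternatives and lost in 13, with adjusted p between 2.01e-06 and 0.353, and DESeq2 called 12 members higher from day 1 to day 3, beside 1.30% of all genes.

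Day 3 and day 6 were the first and last days of the plateau on TPM. Between them edgeR called 0 members, and 3 had an unadjusted p under 0.05, beside 3.98% of all genes. It called 0% of all genes as well, and DESeq2 also called 0 members, beside 0.347% of all genes higher and 0.217% lower. The median log2 fold change of the members was −0.03, beside −0.01 for all genes. From day 6 to day 7, where SCF had just been taken out, TPM were lower on day 7 in both sets for 90 members, beside 75.4% of the 8833 genes. On counts, however, edgeR called 0 members among 1.83% of all genes called, 5 members had an unadjusted p under 0.05, beside 19.0% of all genes, and DESeq2 called 3 members lower, beside 6.25%. The median log2 fold change was −0.05 for the members and 0 for all genes. The lowest values were those of the readthrough gene RPL36A-HNRNPH2 (−1.33 ± 0.99, adjusted p = 0.513), ST6GAL1 (−1.11 ± 0.47, adjusted p = 0.24) and KCNK5 (−1.03 ± 0.27, adjusted p = 0.0868), which did not pass. The ribosomal RNA of the first-set library of day 7 moved with this comparison. With TMM factors computed without ribosomal RNA genes, edgeR called 0 members higher, beside 0.694% of all genes, and 0 lower, beside 1.14%. Any other part of that RNA in the result was not tested.

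**Figure D5:**
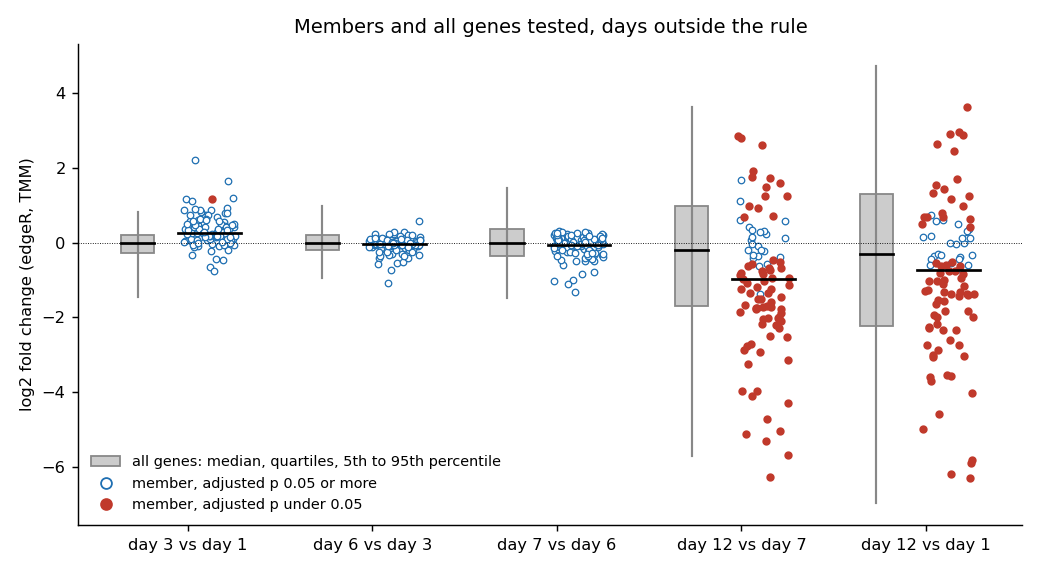
Log2 fold change between days that the rule did not use, from edgeR on gene counts. Grey boxes show the median, quartiles and 5th to 95th percentile of 16139 genes, and points are the 100 members, filled where the adjusted p was under 0.05, with black lines at the medians. Members lie above all genes from day 1 to day 3 (median 0.265), close to 0 to day 7, and on both sides of 0 on day 12. The shift from day 1 to day 3 can follow from the rule.

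Most members were lower on day 12. Of the 100 members, 62 were called lower on day 12 than on day 7, beside 33.6% of all genes, and 14 higher, beside 25.5%, with a median of −0.96 for the members and −0.21 for all genes. Both libraries of day 12 were below both of day 7 for 67 members (42.9% of all genes) and above for 21 (34.7%). The largest decrease was that of NUP210, a nuclear pore protein (−6.26 ± 0.52, adjusted p = 8.09e-06). It was followed by SYNGR1, a synaptic-vesicle-type membrane protein (−5.66 ± 0.54, adjusted p = 1.84e-05), NMU (−5.29 ± 0.66, adjusted p = 0.000107) and PRXL2B (−5.12 ± 0.45, adjusted p = 1.16e-05). In TPM, NUP210 went from 40.99 and 91.8 on day 7 to 0.442 and 0.178 on day 12, and the log2 fold change of A4GALT was −4.7 ± 0.21 (adjusted p = 2.64e-07). Against day 1, 55 members were called lower on day 12, beside 38.8% of all genes, and 20 higher, beside 29.8%. The lowest values were those of NUP210 (−6.29 ± 0.52), CSRP1 (−6.17 ± 0.28), MT1G (−5.87 ± 1.32) and NMU (−5.82 ± 0.66), with adjusted p between 2.2e-07 and 0.0031. The highest value was that of HBZ (3.62 ± 1.18, adjusted p = 0.0208), whose sets were far apart on day 12.

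Some members were high again on day 12. ZNF777, a zinc finger protein, had TPM of 20.04 and 19.3 on day 0, 31.2 and 33.1 on day 4, 16.1 and 22.7 on day 8 and 53.4 and 55.9 on day 12. DCP1B, a cofactor of mRNA decapping, had 22.1 and 17.8 on day 4, 13.2 and 12.2 on day 8 and 32.7 and 29.99 on day 12, and REXO2, an exonuclease that clears short RNA in mitochondria, 288 and 286, 188 and 231 and 394 and 349.9. On TPM these 3 were the members above their day 4 and 5 mean on day 12 in both sets, beside 8.38% of the 8833 genes. On TMM-scaled CPM there were 20, among them TUBB2A, TUBB2B, HMG20B, SART1, DYNLL1 and NDUFAF3, beside 38.0% of the genes, so the number of members that were not transient depended on the scale. Their log2 fold changes from day 7 to day 12 were 2.84 ± 0.19, 2.79 ± 0.2 and 2.59 ± 0.18, with adjusted p of 2.21e-06, 2.97e-06 and 2.37e-06. DYNLL1, a dynein light chain, came next (1.91 ± 0.25, adjusted p = 0.000136), and TUBB2A was also higher (1.75 ± 0.33, adjusted p = 0.00145). On log2 TPM, where globin takes most of the total, limma called 3 members higher on day 12 than on day 7, beside 8.47% of all genes, and 3 higher than on day 1, beside 10.1%. PGD, called higher than on day 1 by edgeR (0.68 ± 0.14, adjusted p = 0.00209), was lower.

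The members lay on 22 chromosomes, with at most 9 on one (chromosome 16), and 57 had the same leading transcript in all 8 libraries of days 0, 4, 5 and 8. Of 7 motifs sought on both strands in the 250 bases before the start, the GATA motif, searched as AGATAA and as AGATAG, also as TGATAA and as TGATAG, stood in 9 of 81 members, or 11.1%, beside 17.7% of all promoters. The shares were for the CACCC box (CCACCC) 34.6% beside 34.3%, for the CCAAT box (CCAAT) 34.6% beside 34.5% and for the E-box (CACGTG) 3.7% beside 7.84%. The element TTGCATCA and the sterol element TCACCCCAC were found in 1 member each. The members' median GC content there was 68.0%, and that of all these promoters 62.4%. None of the 175 genes on 12 lists of pathways was a member, among them heme synthesis, cholesterol synthesis and the targets of EPO, STAT5 and ATF4. Nor was any of 12 erythroid marker genes, which summed to 33082 TPM on day 0 and reached 627493 on day 12. With 100 of 8312 ranked genes taken, few members would fall on lists of this size in any case, so their absence is a description. Summed markers of mast cells or basophils had 2205 and 1171 TPM on day 0 and 8.34 and 4.05 on day 12. Those of megakaryocytes stayed between 5.31 and 75.3, those of monocytes or macrophages between 2.37 and 32.0, and those of lymphocytes, neutrophils and stromal cells at or under 2.96 in every library. The mast cell or basophil sum was 421 and 271 TPM on day 4, and its part in the members' course was not tested. Of its 8 genes, TPSAB1 and TPSB2 reached 1390 and 1485 TPM in their highest library. PRG2 reached 72.3, MS4A2 8.00 and CPA3 6.04 TPM, and 3 genes (HDC, FCER1A and CLC) never reached 1 TPM.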

How the data were processed

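Gene expression was measured by RNA-seq of HUDEP-2 cells. Per the labels and the submitters' processing notes, TruSeq Stranded mRNA libraries were trimmed with Trimmomatic 0.38, aligned to hg38 with HISAT2 2.1.0 and quantified with StringTie 2.1.3b. The authors deposited whole-number read counts per transcript (170322 transcripts), left without normalization, and TPM, which they scaled for transcript length and library total. Of the columns, 23 were not used: all FPKM, and the values of day 0 that stand beside day 12 outside the table of all days.

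Counts and TPM were summed by gene symbol. The members and lists were chosen with earlier results of these data known, and the role groups and gene families were drawn up after the members were known. Named were the 25 members with the highest score, members that code for transcription factors or surface receptors, among the members called in each comparison the 4 highest and the 4 lowest log2 fold changes, members on a gene list, and 3 genes on each side of the limit. Genes named beside these were chosen after their values were seen.

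Counts of the 12 libraries of days 1, 2, 3, 6, 7 and 12 were fitted with edgeR 4.0.16 (filterByExpr, TMM, glmQLFit, glmQLFTest) in R 4.3.3, with 1 coefficient a day. P-values are two-sided, and a standard error is the size of the log2 fold change over the root of edgeR's F statistic. Tested on simulated data for day 3 against day 1 (16139 genes), the test recovered 39% of genes changed 2-fold and 100% of those changed 4-fold, with 5.44% of its calls false. The simulation gave every gene the same setting for the spread, changed only genes above a limit on counts and held no difference between the sets. These shares may therefore differ in the real libraries. Alternatives were DESeq2 1.42.0, limma 3.58.1 on log2(TPM + 1) and log2(TPM + 0.1), other normalizations and filters, all 20 libraries, the set of tables as a block and leaving out each library. How reads shared by near-identical transcripts were divided is not given in the sources used here. A count of 0 allows up to 3 counts, or 0.0426 to 0.0575 CPM, and covers counting error only.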

Additional observations from a re-analysis of the deposited data

How the results depend on the processing

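No paired analysis was possible because the columns are named by day alone, without the replicate number of the labels. The fit with the set of tables as a block, given below, matches libraries by table and not by replicate number. Of 4390 log2 fold changes of the named members under the 22 alternatives, 4281 kept direction and call, 41 lost the call, 44 gained one and 24 reversed. All 24 came from limma on log2 TPM at day 12, where the globin genes took most of the total. With 1 and then 0.1 TPM added, the values against day 7 were −1.46 and −1.46 for PGD, −0.85 and −1.07 for C1orf53, −1.10 and −1.25 for ZNF623 and −1.23 and −1.35 for ZNF395. Against day 1 they were −1.31 and −1.31 for PGD, −1.27 and −1.32 for GCAT, −1.13 and −1.39 for C1orf53, −1.30 and −1.32 for HMG20B, −1.14 and −1.29 for ZNF623, −1.64 and −1.78 for ZNF395, −0.50 and −0.50 for TSC22D4 and −0.30 and −0.31 for DYNLL1. Against day 1, limma called 3 and 3 members higher (10.1% and 10.4% of all genes) and 92 and 92 lower (66.4% and 69.1%) on day 12, and against day 7 3 and 3 higher (8.47% and 8.54%).

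From day 1 to day 3, the members called higher numbered 12 by DESeq2 (1.30% of all genes), 9 with the set of tables as a block (0.570%) and 0 by limma on log2(TPM + 0.1) (0.143%), in place of 1 (0.112%). From day 6 to day 7, the members called lower numbered 3 by DESeq2 (6.25%), 5 and 4 by limma (8.05% and 6.40%), 1 without a filter beyond 1 count (1.52%) and 2 with the block (6.13%), in place of 0 (1.14%). The cause was not tested. Leaving out 1 library at a time, which assumes that the lone sample of a day varies like the others, gave 0 to 1 members higher on day 3 than on day 1 (0 without either library of days 1, 2, 3 or 6 or the second-set library of day 12, and 0 lower), 0 in either direction from day 3 to day 6 and from day 6 to day 7, 11 to 14 higher and 49 to 62 lower on day 12 than on day 7, and 15 to 20 higher and 49 to 55 lower than on day 1.

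The members depended on the scale and the set: 49 remained among the top 100 without globin genes, 35 on TMM-scaled CPM, 51 with the second set alone and 37 with the first alone, and 81 to 97 under the other 4 alternatives. On scales added after values had been seen, the members highest on day 4 or 5 in both sets went from 30 to 12 and those above their day 4 and 5 mean on day 12 from 3 to 20 on TMM-scaled CPM. On the added scales the median log2 ratio of the day 4 and 5 mean to day 8 went from 0.72 to 0.43 without globin genes, 0.38 without globin and ribosomal RNA genes and 0.26 on TMM-scaled CPM, while that to day 0 went from 0.62 to 0.73, 0.72 and 0.76. With 2 libraries a day, 39% of simulated 2-fold changes were recovered, so smaller differences between neighbouring days could be missed. The simulated data had 1 setting for the spread and no difference between the sets, and the share recovered in the real libraries was not tested.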
